A study of Homo sapiens with 6 samples.

Results

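A group of 10 enzymes that build serine, asparagine, proline and cysteine or carry one-carbon units were followed in OVCAR5 cells treated with SpiD7. They were chosen by name (ASNS, PHGDH, PSAT1, PSPH, SHMT2, MTHFD2, ALDH1L2, PYCR1, ALDH18A1 and CTH), as enzymes of amino acid synthesis placed under the control of ATF4, and all 10 were among the 29982 gene symbols of the expression table. OVCAR5 is a human cancer cell line, and SpiD7 is a spirocyclic dimer with covalent-modifying groups that the study tested as an activator of the unfolded protein response. The 6 RNA-seq libraries comprised 2 that received the vehicle DMSO and 4 that received SpiD7 at 10 μM, of which 2 were taken after 2 h, 1 after 6 h and 1 after 12 h. The labels give no duration for the vehicle and do not say whether replicates were separate cultures, so that p-values measure only the spread between these libraries, which may be technical. All cells were of 1 line with no genetic change stated.

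Serine is made from an intermediate of glycolysis by PHGDH, PSAT1 and PSPH in turn, and its side carbon is passed to folate in mitochondria by SHMT2 and then oxidised by MTHFD2. ASNS makes asparagine from aspartate, ALDH18A1 and PYCR1 make proline from glutamate, and CTH makes cysteine by transsulfuration. When amino acids are scarce or unfolded proteins build up, kinases phosphorylate the initiation factor eIF2, translation of ATF4 increases, and ATF4 is known to bind near many genes of this class, ASNS being the textbook example.

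The deposited values were FPKM, fragments relative to transcript length and mapped reads. The columns that carry the number 2 for DMSO and for the 2 h treatment held group means, so the other library of either group was recovered by subtracting the first (here called the second library), and every value of a second library rests on that step. No counts were given. The paper states an approximate range of reads per sample, but the depth of each library is unknown. Steps in the low values placed the depth of the other 5 libraries at 0.769 to 1.11 times that of the first DMSO library. Of 11 epithelial and ovarian carcinoma markers, 9 had a mean FPKM of at least 1, and their summed FPKM was 3234 to 4836 per library. The keratins KRT8 (1459 to 2194) and KRT18 (1242 to 1742) had the highest values of this list. MUC16 and WT1 did not exceed 0.686 and 0.141, respectively, and PAX8 was at 1.64 to 2.12. Of 8 markers of other cells, 3 reached a mean of 1, and their summed FPKM was 27.1 and 50.8 in DMSO, 24.8 and 41.7 after 2 h, 26.5 after 6 h and 30.3 after 12 h. CD3E was listed at 0 in every library, PTPRC did not exceed 0.0317, and the endothelial marker PECAM1 was at 10.7 and 7.74 in the second libraries of DMSO and 2 h but not above 0.961 in the other 4. VWF, also endothelial, did not exceed 0.08605 and was highest at 12 h. CD68 made up most of each sum, at 22.7 to 37.3.

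Promoter sequences of RefSeq (GRCh38.p14, 250 bases before to 50 after a start) were available for 6 of the 10 enzymes, with 7 promoters in all since ASNS had 2. The promoters of the 3 enzymes that exceeded 2-fold at 6 h are shown 5′ to 3′ on the strand of the gene, because ATF4 is known to act through such elements. Capitals mark matches on either strand to TGATGNAA, the core of the C/EBP-ATF response element, and to TGACG, the short core of the cAMP response element, which reads CGTCA on the other strand.
ASNS, chr7:97872359-97872658, minus strand: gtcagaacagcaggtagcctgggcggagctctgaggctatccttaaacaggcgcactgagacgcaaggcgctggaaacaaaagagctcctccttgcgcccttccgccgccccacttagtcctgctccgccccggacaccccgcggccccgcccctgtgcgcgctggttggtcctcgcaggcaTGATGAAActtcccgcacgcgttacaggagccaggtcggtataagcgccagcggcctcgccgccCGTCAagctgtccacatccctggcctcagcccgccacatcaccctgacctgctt
PSAT1, chr9:78296875-78297174, plus strand: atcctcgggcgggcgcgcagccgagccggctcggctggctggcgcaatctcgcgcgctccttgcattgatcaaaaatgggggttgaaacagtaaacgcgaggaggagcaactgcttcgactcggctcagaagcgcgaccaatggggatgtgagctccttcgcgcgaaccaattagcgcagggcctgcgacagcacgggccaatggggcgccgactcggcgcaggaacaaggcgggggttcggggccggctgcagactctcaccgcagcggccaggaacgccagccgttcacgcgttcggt
CTH, chr1:70411018-70411317, plus strand: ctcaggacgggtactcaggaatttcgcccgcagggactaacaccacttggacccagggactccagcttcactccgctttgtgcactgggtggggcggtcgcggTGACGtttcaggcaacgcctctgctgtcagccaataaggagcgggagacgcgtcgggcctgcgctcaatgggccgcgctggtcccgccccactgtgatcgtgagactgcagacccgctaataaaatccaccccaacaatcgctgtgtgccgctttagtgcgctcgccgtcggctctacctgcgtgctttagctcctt
The ASNS promoter held TGATGAAA beginning 68 bases before the start and the TGACG core 4 bases before it. The PSAT1 window held neither motif, and the CTH window held the TGACG core 147 bases before the start. Among the other windows, ALDH18A1 held the TGACG core 3 times, and PHGDH and MTHFD2 held neither motif. The second ASNS window overlaps the first and held only the same TGACG core, already given above. Of 35116 promoters of this length, 3.62% held TGATGNAA and 24.6% held TGACG. A match alone describes the letters and does not establish a bound site, and binding was not measured here.

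Asparagine synthetase (ASNS, ENSG00000070669.16, GRCh38 chr7:97852118-97872542, minus strand) had the largest difference from the DMSO mean of the 10 enzymes at 6 h. Its FPKM was 29.1 and 13.4 in the DMSO libraries, 34.2 and 26.1 after 2 h, 49.7 after 6 h and 38.6 after 12 h. The 6 h and 12 h libraries lay above both DMSO libraries, and the 2 h libraries overlapped with them. The DMSO mean was 21.2 ± 11.1 (SD, n = 2). On the log2(FPKM + 0.1) scale used for all differences, ASNS was 0.59 higher at 2 h, 1.33 higher at 6 h (2.51-fold) and 0.96 higher at 12 h (1.95-fold) than the mean of both DMSO libraries. The choice of control moved these values, since at 6 h the difference was 0.77 from the first DMSO library and 1.88 from the second, and at 12 h 0.41 and 1.52.

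The 3 serine synthesis enzymes were each lower in the second DMSO and 2 h libraries than in the first and lower at 12 h than at 6 h, and PHGDH and PSAT1 had a correlation of 0.921 over the 6 libraries. Differences between the 3 were not tested. PHGDH (GRCh38 chr1:119648411-119744226, plus strand), the first enzyme, was at 46.2 and 34.5 FPKM in DMSO, 46.2 and 30.6 after 2 h, 58.1 after 6 h and 44.1 after 12 h. Only its 6 h library lay above both DMSO libraries, at 0.54 above their mean, and its lowest value was in the second 2 h library. PSAT1 (GRCh38 chr9:78297143-78330093, plus strand), the aminotransferase of the second step, was at 51.0 and 22.9 FPKM in DMSO, 48.5 and 26.0 after 2 h, 77.7 after 6 h and 65.3 after 12 h. PSAT1 thus lay above both DMSO libraries at 6 h and 12 h, by 1.18 (2.27-fold) and 0.93 (1.91-fold) from their mean. From the first DMSO library alone PSAT1 differed by 0.61 and 0.36, and from the second by 1.76 and 1.51. PSPH (GRCh38 chr7:56011051-56051604, minus strand), the phosphatase that releases serine, was at 29.3 and 22.3 FPKM in DMSO, 25.4 and 19.3 after 2 h, 27.1 after 6 h and 20.9 after 12 h. Its 12 h library lay below both DMSO libraries, by 0.29 from their mean, and its 6 h library lay between them. Relative to PHGDH in the same library, PSPH was at 0.634 and 0.645 in DMSO, 0.551 and 0.632 after 2 h, 0.467 after 6 h and 0.474 after 12 h. This ratio was chosen after the values were seen and is a description.

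**Figure D1:**
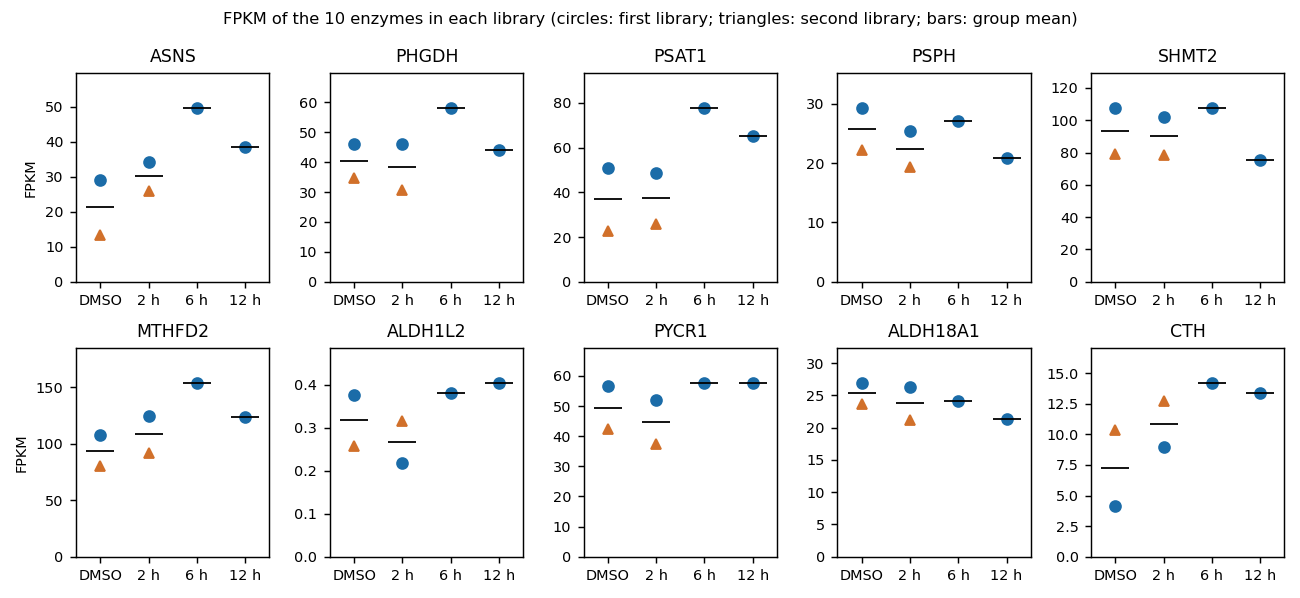
FPKM (vertical axes, from 0) of the 10 enzymes in each library, by treatment (horizontal axes); circles are first libraries, triangles the second libraries recovered from the deposited means, and bars the group mean. ASNS, PSAT1, MTHFD2, PYCR1, CTH and ALDH1L2 (below the filter) lay above both DMSO libraries at 6 h and 12 h, whereas PSPH, SHMT2 and ALDH18A1 lay below both at 12 h.

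Of the mitochondrial one-carbon enzymes, SHMT2 (GRCh38 chr12:57229327-57234935, plus strand), which splits serine into glycine and a folate-bound carbon, was at 108 and 78.9 FPKM in DMSO, 102 and 78.7 after 2 h, 108 after 6 h and 75.4 after 12 h. Its 12 h library lay below both DMSO libraries, 0.29 below their mean. MTHFD2 (GRCh38 chr2:74198562-74217565, plus strand), the dehydrogenase and cyclohydrolase of the next steps, was at 107 and 80.3 FPKM in DMSO, 124 and 92.0 after 2 h, 154 after 6 h and 123 after 12 h. It was 0.73 higher at 6 h (1.65-fold) and 0.41 higher at 12 h, above both DMSO libraries each time and by 0.52 and 0.20 from the first DMSO library alone. The ratio of MTHFD2 to SHMT2 within a library, taken after the values were seen and given as a description, was 0.997 and 1.02 in DMSO, 1.22 and 1.17 after 2 h, 1.43 after 6 h and 1.64 after 12 h. The replicate libraries were close in this ratio, and every SpiD7 library lay above both DMSO libraries. That order was seen in 8.93% of single genes, and its share among gene pairs was not counted. ALDH1L2 (GRCh38 chr12:105019784-105084577, minus strand), which oxidises formyl-folate in mitochondria, had FPKM of 0.218 to 0.405 and did not reach the mean FPKM of 1 required for the tests. It was at 0.377 and 0.259 in DMSO, 0.218 and 0.316 after 2 h, 0.382 after 6 h and 0.405 after 12 h, and C12orf45, which overlaps it on the opposite strand, was at 12.6 to 27.1. The labels name a TruSeq V2 RNA kit, and no use of strand in counting is stated, so reads of the overlap may not be told apart. NDUFA4L2, opposite to SHMT2, did not exceed 2.46 FPKM, and SLC4A5, opposite to MTHFD2, did not exceed 1.70. The annotation names 4 pseudogenes of ASNS, 4 of PSAT1, 1 of PSPH and 7 of MTHFD2, so that reads shared with these copies are a source of uncertainty in the values of those enzymes.

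In proline synthesis, the enzyme of the first steps lay below both DMSO libraries at 12 h and that of the last step above both; a difference between them was not tested. ALDH18A1 (GRCh38 chr10:95605929-95656706, minus strand), which activates and reduces glutamate, was at 26.9 and 23.7 FPKM in DMSO, 26.3 and 21.3 after 2 h, 24.1 after 6 h and 21.3 after 12 h. Its 12 h library lay 0.24 below the mean of the DMSO libraries and below both. PYCR1 (GRCh38 chr17:81932384-81942412, minus strand), the mitochondrial reductase of the last step, was at 56.7 and 42.4 FPKM in DMSO, 52.1 and 37.4 after 2 h, 57.6 after 6 h and 57.7 after 12 h. Its 6 h and 12 h libraries lay above both DMSO libraries, but exceeded the first by only 0.023 and 0.025. The ratio of PYCR1 to ALDH18A1 was 2.104 and 1.79 in DMSO, 1.98 and 1.76 after 2 h, 2.39 after 6 h and 2.71 after 12 h, so that the 2 h libraries overlapped with DMSO and the later ones exceeded both. This ratio, too, was chosen after the values were seen.

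CTH (GRCh38 chr1:70411218-70439851, plus strand), the cystathionine lyase that releases cysteine, had a different order of the replicates. Its FPKM was 4.13 and 10.4 in DMSO, 9.002 and 12.7 after 2 h, 14.2 after 6 h and 13.4 after 12 h. CTH was 0.70 higher at 2 h, 1.10 higher at 6 h (2.15-fold) and 1.02 higher at 12 h (2.02-fold) than the DMSO mean, with the 6 h and 12 h libraries above both DMSO libraries. From the first DMSO library the differences were 1.35, 1.76 and 1.67, and from the second 0.045, 0.45 and 0.36.

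**Figure D2:**
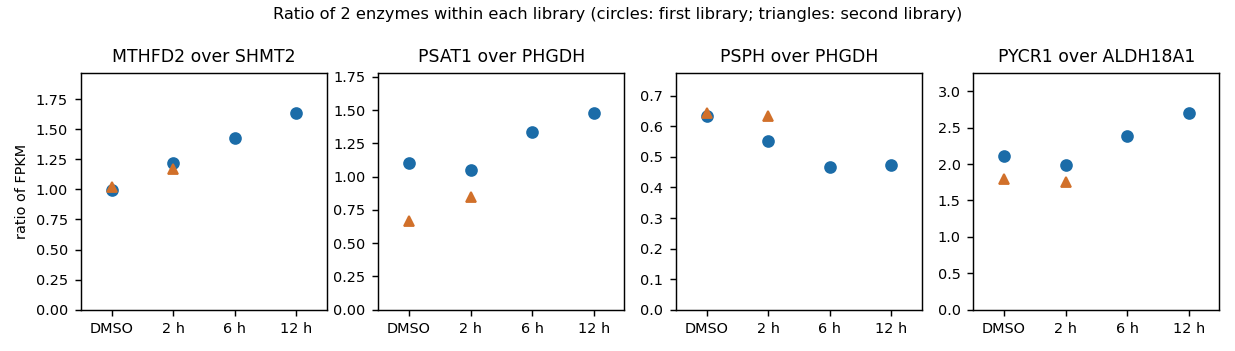
Ratio of the FPKM of 2 enzymes within each library (vertical axes, from 0) by treatment (horizontal axes); circles are first libraries and triangles second libraries. MTHFD2 over SHMT2 went from 0.997 and 1.02 in DMSO to 1.64 at 12 h, and PSPH over PHGDH was below both DMSO values at 6 h and 12 h. The ratios were chosen after their values were seen.

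In a test of the 2 h libraries against DMSO (limma, 2 against 2, Benjamini-Hochberg adjustment over all genes), 0 of the 9 enzymes that passed the filter were called at an adjusted p under 0.05 and over 2-fold, where 0.0226% of the 13287 genes tested were called. No enzyme had an unadjusted p under 0.05 (0 of 9, against 378 of all genes). For ASNS the 95% interval of the difference was -0.79 to 1.98, and for CTH -0.93 to 2.32, so that both intervals include more than 2-fold. The widest interval was that of PSAT1 (-1.64 to 1.75), which includes more than 2-fold in both directions. The intervals of PHGDH (-1.01 to 0.84), MTHFD2 (-0.60 to 1.02) and SHMT2 (-0.83 to 0.75) were narrower, and the first 2 just reached past 2-fold. With a replicate block the intervals were -0.30 to 1.48 for ASNS, -0.30 to 1.70 for CTH and -0.32 to 0.43 for PSAT1. They were -0.40 to 0.22 for PHGDH, -0.023 to 0.43 for MTHFD2 and -0.28 to 0.20 for SHMT2. All of these include 0, and the labels share only replicate numbers, so the block is an alternative. Within the first pair of libraries ASNS was 0.23 higher at 2 h and within the second pair 0.95 higher, and CTH was 1.10 and 0.29 higher. At 2 h, 0 of 9 enzymes exceeded 2-fold against the DMSO mean in either direction (2.32% of all genes were that much higher and 0.662% lower), and 0 lay above or below both DMSO libraries with both 2 h libraries (13.7% of all genes above and 8.1% below). Against the first DMSO library alone 1 enzyme exceeded 2-fold at 2 h (CTH), and against the second 1 did (ASNS, 1.15).

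At 6 h, with 1 library and no test, 3 of 9 enzymes (ASNS, PSAT1 and CTH) were more than 2-fold higher than the DMSO mean and 0 were that much lower, against 5.66% and 3.1% of all genes. Of the 9, 6 (66.7%) lay above both DMSO libraries and 0 below both, where 31.6% of all genes lay above and 29.2% below. With the first DMSO library as the only control, 1 enzyme exceeded 2-fold at 6 h (CTH), and with the second, 2 did (ASNS and PSAT1). The median difference over the 9 enzymes was 0.54, against 0.033 over all genes, and it was 0.33 without the second DMSO library and 0.45 without the first. At 12 h, 1 of 9 (CTH) was more than 2-fold higher and 0 lower (6.48% and 3.76% of all genes), 5 of 9 lay above both DMSO libraries (30.1%) and 3 of 9 below both (35.6%). The first DMSO library alone again gave 1 enzyme over 2-fold (CTH), and the second gave 2 (ASNS and PSAT1). The median over the enzymes was 0.23 at 12 h, against -0.051 over all genes, and at 2 h it was -0.039, against -0.0082. With 1 library left out, the 2 h median ranged from -0.26 to 0.21, and the 12 h median was 0.025 without the second DMSO library and 0.36 without the first. Of the 9, 8 were lower at 12 h than at 6 h, by 0.087 (CTH) to 0.51 (SHMT2), whereas PYCR1 differed by 0.0018. The share of all genes lower at 12 h than at 6 h was not counted. With upper-quartile scaling CTH was 1.062 and 1.061 above the DMSO mean at these times, and PYCR1 0.19 and 0.28. The 3 time points share the same DMSO libraries, so that their values are not independent of each other.

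**Figure D3:**
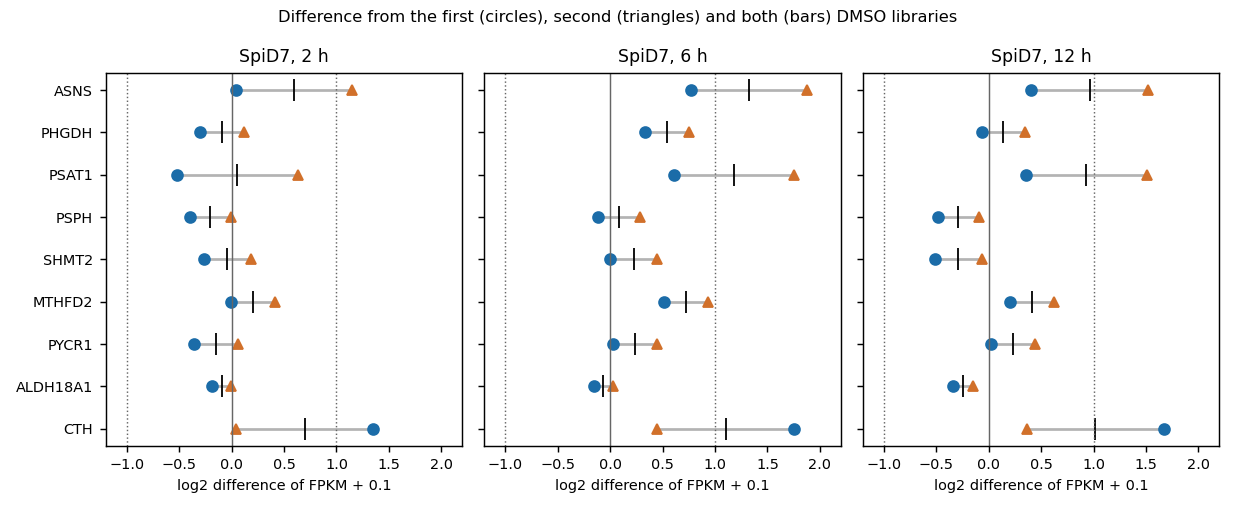
Log2 difference of FPKM + 0.1 (horizontal axes) after 2 h, 6 h or 12 h of SpiD7 from the first DMSO library (circles), the second (triangles) and the mean of both (bars), for the 9 enzymes tested; dotted lines mark 2-fold. At 6 h only CTH exceeded 2-fold against the first DMSO library, and ASNS and PSAT1 did so against the second.

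The 4 SpiD7 libraries together were also compared with DMSO by limma. Again 0 of 9 enzymes were called, where 0.00753% of all genes were, and 0 had an unadjusted p under 0.05, against 818 genes. ASNS was 0.87 ± 0.39 higher (SE, adjusted p = 0.876), and CTH was 0.88 ± 0.39 higher (SE, adjusted p = 0.879). These values rested on the control, since without the first DMSO library ASNS was 1.42 and CTH 0.23 higher, and without the second 0.32 and 1.53. For a slope over the steps from DMSO to 12 h, 0 of 9 enzymes were called at an adjusted p under 0.05, where 0.0151% of all genes were, and 0 had an unadjusted p under 0.05, against 2005 genes. The slope of ASNS was 0.39 ± 0.17 per step (SE, adjusted p = 0.353 in limma), that of CTH 0.37 ± 0.18 (adjusted p = 0.396) and that of PSAT1 0.39 ± 0.20 (adjusted p = 0.417). With 1 library left out, the slope ranged from 0.21 (without the second DMSO library) to 0.65 (without 12 h) for ASNS, from 0.16 (without the first DMSO library) to 0.57 (without 12 h) for CTH, and from 0.26 (without the second DMSO library) to 0.57 (without the first) for PSAT1. No enzyme had all 4 SpiD7 libraries above both DMSO libraries or below both (0 of 9), an order seen in 8.93% and 5.04% of all genes.

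The replicate libraries of a group differed in these enzymes. Of the 9, 8 were lower in the second DMSO library than in the first, by a median over all 9 of -0.42, and 8 were lower in the second 2 h library than in the first, by a median of -0.39. Of all genes, 54.1% and 54.6% were lower in these second libraries, with medians of -0.056 and -0.060. ASNS, PSAT1 and CTH (3 of 9), which were also the 3 above 2-fold at 6 h, differed more than 2-fold between the DMSO libraries, as did 13.5% of all genes. The libraries in which the 8 enzymes were lower were the second ones, in which PECAM1 and the summed markers of other cells (mostly CD68) were higher. VWF, also an endothelial marker, did not exceed 0.037 in the second libraries. The epithelial markers MUC1 (3.15 and 21.95 in DMSO, 3.21 and 17.7 after 2 h) and CDH1 (11.4 and 19.2, 11.8 and 19.3) were higher in them too. The summed epithelial and ovarian carcinoma markers were lower in them (4221 and 3794 in DMSO, 4013 and 3234 after 2 h). The part of any of these markers in the differences was not tested. Over the 6 libraries, 31 of the 36 pairs of enzymes had a positive correlation of log2 values, with a median r of 0.55, and the highest was that of ASNS with MTHFD2 (r = 0.947). CTH had an r of -0.755 to 0.200 with the other enzymes. All pairs share the same libraries, including the shift between first and second libraries, so these values are a description. The share of all gene pairs with a positive correlation was not counted, and shared regulation was not tested.

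ATF4, DDIT3 and CEBPB, transcription factors of the same response, were read in the same libraries. ATF4 was at 153 and 202 FPKM in DMSO, 270 and 274 after 2 h, 343 after 6 h and 326 after 12 h, and every SpiD7 library lay above both DMSO libraries. DDIT3, which encodes CHOP, was at 13.9 and 46.3 FPKM in DMSO, 99.1 and 188 after 2 h, 203 after 6 h and 124 after 12 h, again with no overlap. CEBPB was at 12.2 and 28.0 FPKM in DMSO, and its SpiD7 libraries, at 16.7 to 24.8, lay between these. At 2 h ATF4 and DDIT3 thus lay above both DMSO libraries, as did 13.7% of all genes, while all 9 enzymes overlapped with DMSO. All 4 SpiD7 libraries lay above both DMSO libraries in 8.93% of all genes. An order of regulators before enzymes was not tested, and these values are of RNA, not of translation. In limma, 0 of the 13 regulators measured were called in any of the 3 fits. At an unadjusted p under 0.05 there were 1 at 2 h, 3 over all SpiD7 libraries and 4 for the slope. Of all 13287 genes, 378, 818 and 2005 had such a p in these fits.

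Other genes of the surrounding pathways were described by lists, in which limma called 0 genes in each of the 3 fits. At an unadjusted p under 0.05 no pathway list below held a gene at 2 h or over all SpiD7 libraries (0 each), and each held 0 to 2 for the slope. Such a p was found for 378, 818 and 2005 of all 13287 genes in the 3 fits. The counts at 12 h are to be read against the 30.1% of all genes that lay above both DMSO libraries and the 35.6% that lay below both. Of the other serine and glycine genes, 9 of 11 passed the filter, with a median difference of -0.16 after 2 h, 0.0027 after 6 h and -0.68 after 12 h. The 12 h median was -0.55 from the first DMSO library and -0.46 from the second. In the 12 h library, 6 of the 9 lay below both DMSO libraries and 1 above both. AMT, of the glycine cleavage system, was the lowest of this list at 12 h (2.21 and 5.20 FPKM in DMSO and 1.88 at 12 h), and GCAT, which converts threonine products to glycine, was the highest (11.9 and 8.11 in DMSO and 14.3 at 12 h). Of 13 folate genes, 5 lay below both DMSO libraries at 12 h and 1 above both, with a median of -0.29 that was -0.34 from the first DMSO library and 0.090 from the second. ALDH1L1, the cytosolic counterpart of ALDH1L2, was the lowest (7.52 and 17.0 FPKM in DMSO and 5.92 at 12 h), and MTFMT, which formylates the mitochondrial initiator tRNA, was the highest (10.7 and 6.48 in DMSO and 9.70 at 12 h).

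Of 10 methionine and transsulfuration genes, 3 lay above both DMSO libraries and 7 below both at 12 h, with a median of -0.14. MTR, methionine synthase, was the lowest at 12 h (7.69 and 4.45 FPKM in DMSO and 3.16 at 12 h). GCLM, a subunit of the enzyme that starts glutathione synthesis from cysteine, was the highest (21.1 and 10.5 FPKM in DMSO, 27.1 and 16.8 after 2 h, 36.5 after 6 h and 25.8 after 12 h). Of 13 genes of proline, glutamate, aspartate and arginine metabolism, 4 lay above and 4 below both DMSO libraries at 12 h, with a median of -0.018 that was -0.14 from the first and 0.11 from the second. GLUL, glutamine synthetase, was the highest and had close replicates, at 41.0 and 42.2 FPKM in DMSO, 49.2 and 53.1 after 2 h, 61.5 after 6 h and 82.9 after 12 h, with every SpiD7 library above both DMSO libraries. ALDH4A1, which oxidises the proline breakdown product to glutamate, was the lowest at 12 h (6.48 and 8.44 FPKM in DMSO and 5.17 at 12 h). Of 13 purine synthesis genes, which draw on one-carbon units, 4 lay below both DMSO libraries and 1 above both at 12 h, with a median of -0.16 that was -0.55 from the first DMSO library and 0.21 from the second. PFAS was the lowest (20.2 and 11.04 FPKM in DMSO and 8.03 at 12 h), and PPAT, the first committed enzyme, was the highest (25.4 and 15.0 in DMSO and 26.2 at 12 h).

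**Figure D4:**
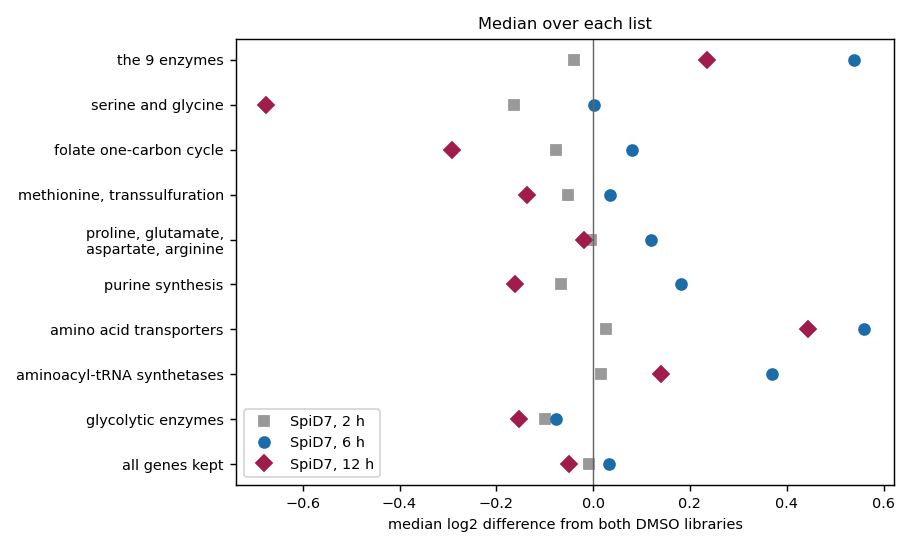
Median log2 difference from both DMSO libraries (horizontal axis) over the 9 enzymes, 8 lists of other genes and all 13287 genes kept, after 2 h (squares), 6 h (circles) and 12 h (diamonds) of SpiD7. At 12 h the enzymes were at 0.23 and the other serine and glycine genes at -0.68. From the first DMSO library alone these medians were 0.025 and -0.55, and from the second 0.36 and -0.46.

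Another 3 lists were set beside the enzymes for comparison, and limma again called 0 of their genes in each fit. At an unadjusted p under 0.05 there were 3 transporters over all SpiD7 libraries, and 1 transporter and 4 synthetases for the slope. Of all 13287 genes, 818 and 2005 had such a p in these 2 fits. The 11 amino acid transporters that passed the filter had a median of 0.56 at 6 h and 0.44 at 12 h, with 8 and 6 of them above both DMSO libraries and 0 and 2 below both. The 20 aminoacyl-tRNA synthetases of the cytosol had medians of 0.37 and 0.14, with 16 above both DMSO libraries at 6 h and 7 at 12 h, and 1 and 4 below both. The 16 glycolytic enzymes had medians of -0.077 and -0.15, with 5 and 3 above both and 5 and 9 below both. Of all genes, 31.6% and 30.1% lay above both at these times and 29.2% and 35.6% below both. Against the first DMSO library alone, the 12 h medians were 0.20 for the transporters, -0.12 for the synthetases, -0.13 for the glycolytic enzymes and 0.025 for the 9 enzymes, and against the second they were 0.47, 0.31, -0.17 and 0.36.

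The genes outside the list whose centred log2 profile over the 6 libraries was nearest to the median profile of the 9 enzymes were MPDU1 (root-mean-square difference 0.0723, r = 0.996), MAGOH (0.0882, r = 0.976), GAPDHS (0.0895, r = 0.979), YY1 (0.0909, r = 0.978) and PLEK2 (0.0931, r = 0.974). MPDU1, which is needed for the use of dolichol-linked sugars, was at 61.8 and 45.0 FPKM in DMSO, 60.0 and 43.5 after 2 h, 72.1 after 6 h and 59.7 after 12 h. Its profile, like that of PHGDH (0.0948, r = 0.988), followed the first and second libraries as well as the 6 h library. ASNS and PSAT1 differed more from the median profile (0.407 and 0.416), and CTH the most (0.663, r = -0.052).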

How the data were processed

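RNA of OVCAR5 cells was sequenced in 6 libraries. Per the labels and the methods, the authors trimmed the reads with Trim Galore, aligned them with TopHat2 2.0.8, and estimated and compared expression with Cufflinks and Cuffdiff 2.1.1 (the sources name a mouse build, although loci are human). The deposited values of the authors were FPKM for both sides of 4 comparisons, each scaled on its own, with the log2 fold change, p-value and q-value of each comparison, which were not used. Every value column matched a sample or group, with 0 left over.

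The columns named for replicate 2 were means: 0 of the 18195 rows with signal in the first DMSO library had none in the mean column, and the share of the first library piled up at 0.526 for DMSO (810 rows) and 0.509 for 2 h (964 rows). The second libraries were recovered by taking off that share of the first library and dividing the rest by it, with a remainder under 0.2% of the mean taken as 0, and the 6 h and 12 h values were put on the scale of comparison 1 (factors 0.972 and 0.994). Rows of a symbol were summed (33085 rows, 29982 symbols, 1 row without a gene left out). The 13287 genes whose mean FPKM reached 1 were tested on log2(FPKM + 0.1) with limma 3.58.1 in R 4.3.3, two-sided, with Benjamini-Hochberg adjustment, and the step was tested on simulated data. Other steps used pandas 2.3.3 and numpy 2.4.6 under Python 3.11.15. Pathway genes were named as the highest and lowest of each list at 12 h, ATF4, DDIT3 and CEBPB were fixed, and the 5 genes nearest in profile were named; within-library ratios were chosen after their values were seen. The enzymes and lists were chosen with earlier results of these data known. Gene positions are from GENCODE v29 (GRCh38). Alternatives were other pseudocounts, filters, scalings, rows of a symbol, an intensity trend, hours, a replicate block and leaving out each library.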

Additional observations from a re-analysis of the deposited data

Results flagged for a closer look

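PSPH and SHMT2 had every library of 1 time point on one side of the DMSO mean and every library of another on the other side. PSPH was below the DMSO mean in both 2 h libraries (-0.0061 and -0.40 on the log2 scale), above it at 6 h (0.086) and below it at 12 h (-0.29). SHMT2 was above it at 6 h (0.22) and below it at 12 h (-0.29). The mean difference of PHGDH (-0.088 at 2 h, 0.54 at 6 h) and PYCR1 (-0.15 at 2 h, 0.23 at 6 h) also changed sign, with 2 h libraries on both sides of the DMSO mean. These differences were not tested, the 6 h and 12 h values are single libraries, and the 6 h value of PSPH and of SHMT2 lay between the DMSO libraries. No group held the 4 libraries needed to look for an outlying one.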

How the results depend on the processing

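The number of enzymes called was 0 under every alternative of the 3 limma fits. The number of all genes called was 3 at 2 h, and 6 with a pseudocount of 0.01, 1 with a pseudocount of 1, 0 without a filter, 1 with upper-quartile scaling, 5 with an intensity trend, and 0 to 21 with a library left out. Over all SpiD7 libraries it was 1, and 3 without a filter and 1 to 26 with a library left out. For the slope it was 2, and 4 with a pseudocount of 1, 4 without a filter, 1 with median-ratio scaling, 1 with upper-quartile scaling, 0 with hours in place of steps, and 0 with any library left out. The replicate block gave 0 genes at 2 h, 1 over all SpiD7 libraries and 1 for the slope; the labels share only replicate numbers, and the deviations of the first libraries from their group means had a correlation of 0.369 over genes, with 2 pairs only. Under the block, 0, 2 and 3 of 9 enzymes had an unadjusted p under 0.05, against 1874, 1296 and 4055 of the 13287 genes. The 3 for the slope differed in direction (CTH 0.54, ALDH18A1 -0.12 and PSPH -0.14 per step). At 2 h, 1 enzyme exceeded 2-fold with either DMSO library left out (0 to 1 over the libraries left out) and 1 in the first libraries alone, an alternative chosen after seeing the data. At 6 h, leaving out a DMSO library gave 1 (without replicate 2) to 2 (without replicate 1) in place of 3 enzymes over 2-fold, and a pseudocount of 1 gave 2. At this time 1 enzyme (ALDH18A1) lay below both DMSO libraries with median-ratio scaling and 1 with upper-quartile scaling. At 12 h the number over 2-fold was 1, and 0 with a pseudocount of 1, 2 with upper-quartile scaling, and 1 to 2 with a DMSO library left out. The direction of each enzyme at each time was the same under both scalings. FPKM give no counts, so no counting error or limit of detection could be set, and the 6 h and 12 h values have no replicate.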

Other observations

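Some further ratios within a library, taken after the values were seen, are given as values. SHMT2 over SHMT1, its cytosolic counterpart, was 6.19 and 6.13 in DMSO, 6.14 and 6.46 after 2 h, 6.91 after 6 h and 8.08 after 12 h. MTHFD2 over its paralogue MTHFD2L was 137 and 171 in DMSO, 172 and 120 after 2 h, 160 after 6 h and 103 after 12 h. ASNS over PHGDH was 0.629 and 0.389 in DMSO, 0.741 and 0.853 after 2 h, 0.855 after 6 h and 0.876 after 12 h, and every SpiD7 library lay above both DMSO libraries. The share of gene pairs with that order was not counted. In DMSO, SHMT2 and MTHFD2 were at percentiles 92.2 and 92.3 of the genes kept, and CTH was at percentile 38.2.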
